A study of Mus musculus with 10 samples.

Results

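Inhibitory receptors are membrane proteins that hold back a T cell once it has been activated. Described here are 8 of their genes, Pdcd1, Ctla4, Lag3, Havcr2, Tigit, Btla, Cd160 and Cd200r1, out of 53465 genes counted in every sample. They were chosen by name, with earlier results of these data known. All 8 were found by their Ensembl identifiers and all 8 were among the 13182 genes kept by a filter on low counts. Cd200r1 met that filter only through the day 5 libraries, where it was higher, with 8 to 11 reads in each of the day 9 libraries.

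PD-1, the product of Pdcd1, binds PD-L1 and PD-L2 and recruits the phosphatase SHP-2, which dampens signals from the antigen receptor and CD28. CTLA-4 competes with CD28 for CD80 and CD86, TIGIT competes with CD226 for the poliovirus receptor PVR, BTLA and CD160 bind the herpesvirus entry mediator encoded by Tnfrsf14, and CD200R1 binds CD200 and signals through the adaptors Dok1 and Dok2. In CD8 T cells several of these genes are switched on by activation, and high combined levels are a known feature of exhausted cells under lasting antigen exposure.

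The cells were CD8 T cells of C57BL/6 OT-I mice, whose transgenic receptor recognises an ovalbumin peptide, from spleens and peripheral lymph nodes. They were activated with that peptide and interleukin-2 in 25 mM glucose for 3 days and then held in 1 mM glucose, for 24 h in the samples labelled d5 and for 120 h in those labelled d9. These times do not add up to the labelled days, and the labels do not say why. Each day had an arm kept free of acetate and an arm given 5 mM sodium acetate, with 2 samples per arm at d5 and 3 per arm at d9. Acetate was present for the last day in culture, and all 10 samples received the phorbol ester PMA together with ionomycin during 4 h before harvest, so every value describes restimulated, glucose-restricted cells. Longer restriction came with a longer time since activation, and these cannot be told apart in the d9 against d5 comparisons. Whether replicates came from different cultures or mice is not stated in the labels, so the p-values rest on the scatter among these samples alone, and that scatter may be technical.

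Polyadenylated RNA gave 16588023 to 24659226 counts per library, with all d5 libraries below all d9 libraries. Levels are given in CPM, the usual count scaled to a common library total, here with TMM factors. The summed level of 9 CD8 T cell genes was 2855 to 4169 CPM. Of the markers of other cell types that carry some of these receptors, 7 of 8 B cell genes and 7 of 8 myeloid and mast cell genes stayed below 1 CPM in each library, with summed levels of 0.927 to 5.47 and 0.779 to 2.46 CPM. The B cell sum was highest in the d5 acetate group, at 3.64 and 5.47 CPM. For NK cells 2 of 5 and for dendritic cells 4 of 6 genes stayed below 1 CPM, and Foxp3 of regulatory T cells was below 1 CPM everywhere. The dendritic cell sum was 19.4 to 32.4 CPM in the d5 and 67.8 to 99.6 CPM in the d9 libraries, mostly Zbtb46 (16.4 to 97.8 CPM). Itgax was at 1.60 to 3.39 CPM, Flt3 and Xcr1 had counts below 1 CPM, and Clec9a and Siglech had no count. The part of the dendritic cell sum in the results was not tested. The sum of the CD4 and regulatory T cell genes was 118.5 to 170.2 CPM, mostly Zbtb7b (105.8 to 163.3 CPM), while Cd4 itself was at 0.234 to 1.70 CPM. The NK cell sum was 4.32 to 5.13 CPM at d5, 9.70 to 9.89 CPM at d5 with acetate, 9.75 to 15.2 CPM at d9 and 20.1 to 28.3 CPM at d9 with acetate, at d9 mostly from Klrb1c, and its part in the results, those of Cd160 included, was not tested. Replicate 1 of d9 and replicate 2 of d9 with acetate stood apart. Ribosomal protein genes took 15.4 and 15.1% of their counts and 11.2 to 12.7% in the rest of d9. Calls of the 8 receptors that change without these 2 libraries are given both ways. At d5 the ribosomal share was highest in replicate 2 with acetate, at 14.0%, against 11.9% in replicate 1 with acetate. The d5 libraries without acetate also lay below 14.0%. The part of this share in the acetate results at d5 was not tested. The share of counts on mitochondrial genes was at least 0.781% in every d5 library and at most 0.532% in every d9 library, so it moved with the d9 against d5 comparisons, and its part in them was not tested.

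PMA and ionomycin, used on all samples, act through factors of the AP-1 and NFAT families. The promoter windows below are therefore shown, for 3 of the 8 genes that fell at d9 without acetate and, last, 1 that did not. Each runs 5′ to 3′ on the strand of the gene, from 250 bases before to 50 bases after the start site given by RefSeq (GRCm38.p6). Capitals mark matches, on either strand, to the AP-1 letters TGANTCA or the NFAT core GGAAA.
Btla, chr16:45224087-45224386, plus strand: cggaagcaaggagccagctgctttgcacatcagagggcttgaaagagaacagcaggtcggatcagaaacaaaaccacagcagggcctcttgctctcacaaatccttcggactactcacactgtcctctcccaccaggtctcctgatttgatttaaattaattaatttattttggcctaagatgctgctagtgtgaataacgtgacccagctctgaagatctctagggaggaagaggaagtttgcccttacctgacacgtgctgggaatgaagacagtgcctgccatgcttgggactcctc
Pdcd1, chr1:94052504-94052803, minus strand: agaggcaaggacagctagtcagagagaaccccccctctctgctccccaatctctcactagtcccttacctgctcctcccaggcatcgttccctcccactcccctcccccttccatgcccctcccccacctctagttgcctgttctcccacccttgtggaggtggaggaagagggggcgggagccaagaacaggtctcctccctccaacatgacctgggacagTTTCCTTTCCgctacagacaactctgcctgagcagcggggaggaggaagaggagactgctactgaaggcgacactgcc
Tigit, chr16:43664135-43664434, minus strand: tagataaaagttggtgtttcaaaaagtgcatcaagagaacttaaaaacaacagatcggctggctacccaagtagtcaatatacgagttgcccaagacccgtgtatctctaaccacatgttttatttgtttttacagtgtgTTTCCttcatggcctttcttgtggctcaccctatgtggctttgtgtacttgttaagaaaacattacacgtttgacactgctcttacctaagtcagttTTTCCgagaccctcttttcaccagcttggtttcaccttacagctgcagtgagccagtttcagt
Havcr2, chr11:46454681-46454980, plus strand: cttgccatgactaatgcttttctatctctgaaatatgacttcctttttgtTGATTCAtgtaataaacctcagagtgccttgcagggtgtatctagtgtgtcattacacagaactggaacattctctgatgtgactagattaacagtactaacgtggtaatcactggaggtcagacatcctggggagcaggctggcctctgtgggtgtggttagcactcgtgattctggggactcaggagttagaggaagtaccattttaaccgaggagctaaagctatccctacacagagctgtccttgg
Of the 8 genes, 6 had windows in the RefSeq table, 7 windows in all. The AP-1 letters were found in 1 of them, that of Havcr2, and in 7.81% of the 32851 windows of the table. The NFAT core is short and occurs in 61.3% of all windows. It was found at 2 places each in the Pdcd1 and Tigit windows, at 1 place in that of Ctla4 and in 1 of the 2 windows of Cd160, and not in those of Btla and Havcr2. A match describes these letters and no binding was measured. The end of the Tigit window, unlike that of the other windows, was not found in an annotated transcript of its gene.

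Divided by the length of the annotated exons, the transcripts were spread over a wide range and kept a similar order in the groups. At d5 the mean levels were 210.5 CPM per kb for Pdcd1, 157.5 for Lag3, 101.5 for Tigit, 39.4 for Havcr2, 30.7 for Cd160, 23.2 for Ctla4, 4.17 for Btla and 0.364 for Cd200r1, and no neighbours in this order overlapped between libraries. At d5 with acetate Pdcd1 (208.1 CPM per kb) and Lag3 (157.5) overlapped, as did Ctla4 (39.5) and Havcr2 (33.1), and Cd160 (55.7) stood above both. At d9 Lag3 (105.2 CPM per kb) and Pdcd1 (81.8) led with overlapping libraries, and the neighbours in the run Tigit (47.0), Havcr2 (42.1), Cd160 (33.7) and Ctla4 (25.8) overlapped as well. At d9 with acetate Lag3 (126.3 CPM per kb) and Pdcd1 (109.7) again led and overlapped, ahead of Tigit (66.4), Ctla4 (56.6), Havcr2 (45.8) and Cd160 (42.95), of which each overlapped the next. Btla and Cd200r1 were the lowest of the 8 in every library. Summed over the 8 genes, the level was 1009 to 1275 CPM in the 4 d5 libraries, 662 to 711 CPM at d9 and 833.5 to 1030 CPM at d9 with acetate, and Pdcd1 and Lag3 made up 44.8 to 69.1% of it.

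**Figure D1:**
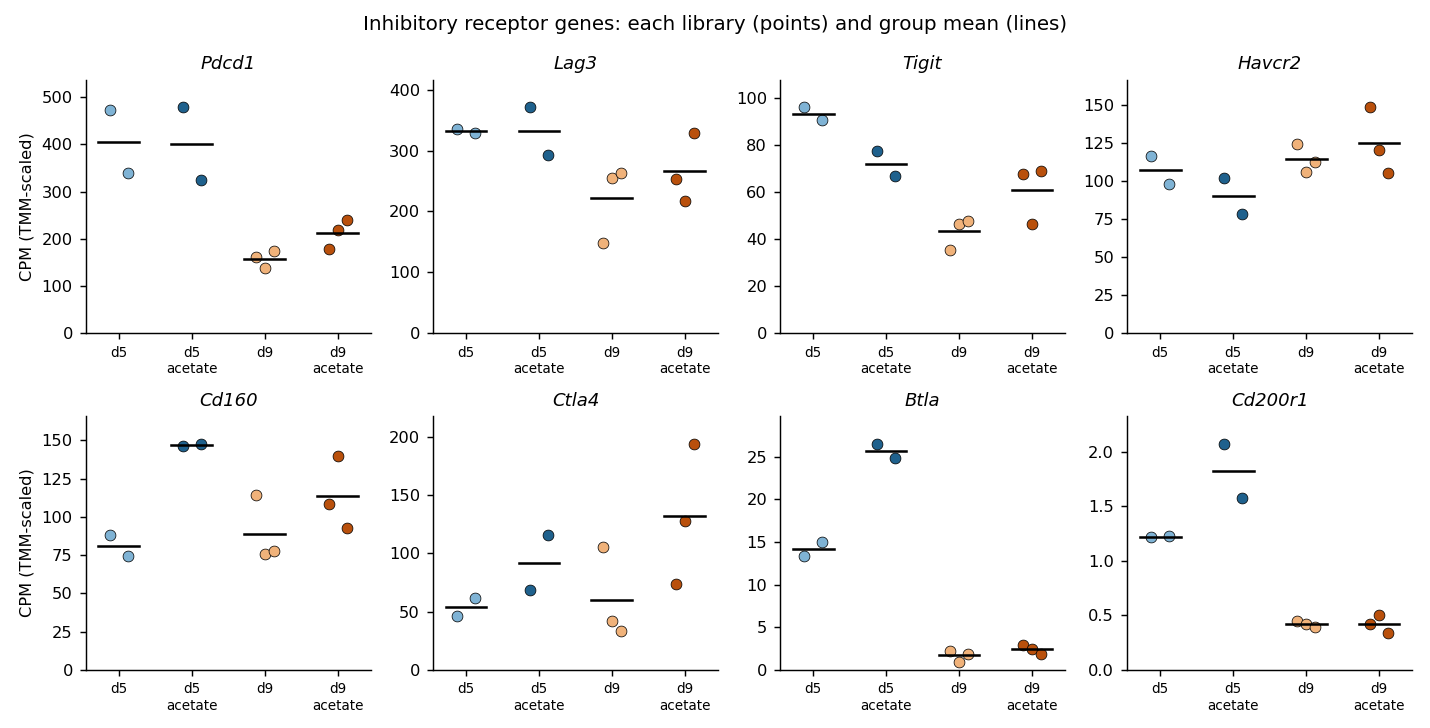
Level of each receptor gene in CPM (vertical axis, from 0) in every library (points) of the 4 groups, with lines at the group means. Btla, Cd200r1 and Pdcd1 are lower in all d9 than in all d5 libraries, while Ctla4 at d9 ranges from 33.2 to 194 CPM.

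From 24 h to 120 h of low glucose the receptors that changed mostly fell. Without acetate 4 of 8 fell, Btla, Cd200r1, Pdcd1 and Tigit, and none rose, beside 37.1% of all 13182 genes past the same threshold (BH-adjusted p of at most 0.05 by edgeR's quasi-likelihood test), of which 21.2% were lower and 15.9% higher (shares of all genes). With acetate on both days 3 of 8 fell, Btla, Cd200r1 and Pdcd1, and Havcr2 rose, beside 41.6% of all genes, 23.1% lower and 18.5% higher. A count of 4 of 8 in each comparison is not far above the share of all genes. Cd200r1, part of both counts, met the filter on low counts only through the d5 libraries. Libraries of the groups did not overlap for 5 receptors that were lower and 0 that were higher without acetate, and for 4 that were lower and 1 that was higher with it, where 33.4% and 29.7%, and 33.4% and 29.1%, of all genes did so. The median log2 change of the 8 was -0.85 without and -0.35 with acetate, against -0.01 for all genes in each comparison. In bulk RNA, fewer cells carrying a transcript and less of it per cell cannot be told apart.

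Btla encodes an immunoglobulin-family receptor of lymphocytes (ENSMUSG00000052013, chromosome 16, 45224315 to 45257670, plus strand, GRCm38). It stood at 13.4 and 14.9 CPM in the d5 libraries, at 26.6 and 24.8 CPM at d5 with acetate, at 2.24, 0.931 and 1.87 CPM at d9 and at 2.87, 2.43 and 1.88 CPM at d9 with acetate. No d9 library reached the lowest d5 library, and these values rest on 22 to 68 reads at d9 and 243 to 474 at d5. Btla fell 8.44-fold without acetate (log2 -3.08 ± 0.28, SE; edgeR adjusted p = 2.59e-05) and 10.7-fold with it (log2 -3.42 ± 0.27; adjusted p = 1.14e-05). It had the largest change of the 8 in both comparisons, and both calls held in 16 of 16 alternative fits.

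Cd200r1 (ENSMUSG00000022667, chromosome 16, 44765736 to 44794978, plus strand) was the scarcest of the set. It had 22 and 21 reads at d5, 37 and 30 at d5 with acetate, 10, 10 and 9 at d9 and 10, 11 and 8 at d9 with acetate. As levels these were 1.22 ± 0.00921 (SD, n = 2), 1.83 ± 0.351 (n = 2), 0.421 ± 0.0282 (n = 3) and 0.422 ± 0.0814 CPM (n = 3). The d5 and d9 libraries did not overlap, although the d9 libraries were the deeper ones. It fell by 1.52 ± 0.30 on the log2 scale without acetate (SE; edgeR adjusted p = 0.00306) and by 2.10 ± 0.29 with it (adjusted p = 0.000307), and was called in all 16 alternative fits of each. Cd200r1 met the filter on low counts only through the d5 libraries. Its calls, though part of the counts above, therefore carry no weight of their own. With so few reads, a further difference between the d9 groups was not detectable at this depth (log2 0.00, 95% interval -0.73 to 0.73).

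Pdcd1 (ENSMUSG00000026285, chromosome 1, 94038305 to 94052553, minus strand), the gene of PD-1, was the most abundant of the 8 at d5 per length. Its levels were 472.9 and 339.5 CPM at d5, 479.7 and 323.7 CPM at d5 with acetate, 162, 137 and 175 CPM at d9, and 178, 219 and 239 CPM at d9 with acetate. The d5 replicates differed by more than 100 CPM within each group, yet the lowest d5 library still lay above the highest d9 library. Pdcd1 fell 2.57-fold without acetate (log2 -1.36 ± 0.20; edgeR adjusted p = 0.000531) and 1.90-fold with it (log2 -0.92 ± 0.20; adjusted p = 0.00451). The second call was lost without replicate 1 of d5 with acetate (log2 -0.60, adjusted p = 0.0754).

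Tigit (ENSMUSG00000071552, chromosome 16, 43648867 to 43664146, minus strand) had levels of 96.1 and 90.4 CPM at d5 and 77.5 and 66.5 CPM at d5 with acetate. At d9 it stood at 35.4, 46.4 and 47.8 CPM, and with acetate at 67.7, 46.4 and 68.9 CPM. Without acetate all d9 libraries lay below both d5 libraries, and Tigit fell 2.16-fold (log2 -1.11 ± 0.185; edgeR adjusted p = 0.00107; called in 16 of 16 alternative fits). With acetate the d5 and d9 libraries overlapped and Tigit did not pass (log2 -0.24 ± 0.19; adjusted p = 0.325). The difference between these 2 changes, which is also the difference between the acetate effects at d9 and d5, was 0.87 ± 0.27 on the log2 scale and did not pass over all genes (edgeR adjusted p = 0.431). Without the 2 d9 libraries that stood apart it was 0.93 with an adjusted p of 0.016. That fit passed 255 of 12935 genes for this difference, against 0 of 13182 with all libraries.

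Lag3 (ENSMUSG00000030124, chromosome 6, 124904361 to 124911705, minus strand), whose product binds MHC class II, was measured at 335 and 329 CPM at d5 and at 372.0 and 292 CPM at d5 with acetate. At d9 it was 149, 255 and 262 CPM, and with acetate 254, 217 and 328 CPM. The low value of 149 CPM came from d9 replicate 1, one of the libraries that stood apart. Lag3 did not pass without acetate (log2 -0.58 ± 0.24; edgeR adjusted p = 0.0784) or with it (log2 -0.32 ± 0.24; adjusted p = 0.307). Without the 2 libraries that stood apart the change without acetate was smaller, at -0.38, and passed (adjusted p = 0.0352).

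Havcr2 (ENSMUSG00000020399, chromosome 11, 46454935 to 46481255, plus strand) encodes TIM-3, a receptor typical of differentiated effector cells. It stood at 117 and 97.7 CPM at d5, 102 and 78.1 CPM at d5 with acetate, 124, 106 and 113 CPM at d9, and 149, 121 and 105 CPM at d9 with acetate. The groups overlapped without acetate (log2 0.09 ± 0.17; edgeR adjusted p = 0.696) and did not overlap with it. With acetate Havcr2 rose by 0.47 ± 0.17 on the log2 scale, a change that only just passed (edgeR adjusted p = 0.0478) and was called in 9 of 16 alternative fits. Without replicate 2 of d5 with acetate the log2 change was 0.30 (adjusted p = 0.319), and without replicate 1 of d9 with acetate it was 0.33 (adjusted p = 0.14).

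Cd160 and Ctla4 did not pass in either d9 against d5 comparison. Cd160 (ENSMUSG00000038304, chromosome 3, 96798763 to 96829351, minus strand) encodes a receptor anchored by a lipid tail and found on NK and cytotoxic T cells, and 68 bases of its exons overlap those of Pdzk1 on the opposite strand. At d9 Cd160 stood at 114, 75.4 and 77.4 CPM without and at 108.5, 139.6 and 92.4 CPM with acetate. In each d9 group it was highest in the library that stood apart, and the part of this in its changes was not tested. The log2 change of Cd160 was 0.13 ± 0.21 without acetate (edgeR adjusted p = 0.654) and -0.38 ± 0.21 with it (adjusted p = 0.163). Without the 2 libraries that stood apart the latter was -0.56 and passed (adjusted p = 0.00167). Ctla4 (ENSMUSG00000026011, chromosome 1, 60887000 to 60915832, plus strand) had log2 changes of 0.15 ± 0.51 (edgeR adjusted p = 0.839) and 0.52 ± 0.51 (adjusted p = 0.433), and the former was -0.51 without d9 replicate 1.

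**Figure D2:**
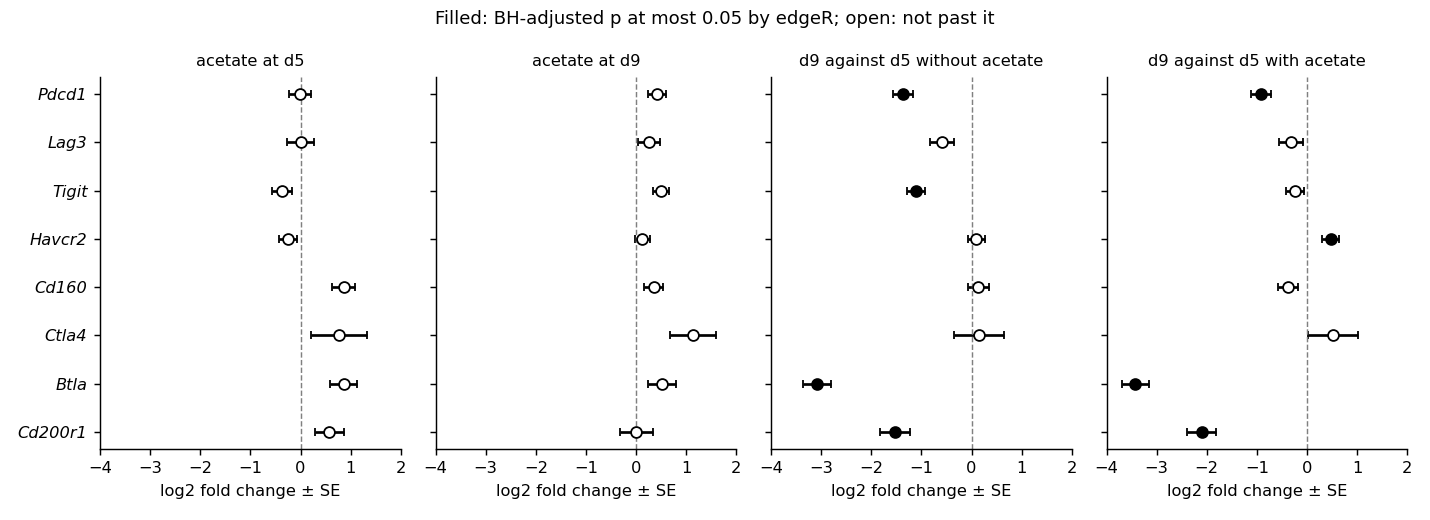
Log2 fold change of each receptor gene (horizontal axis, bars are SE) for acetate at d5 and at d9 and for d9 against d5 without and with acetate. Filled points passed an adjusted p of 0.05; none is filled for acetate, and Btla lies farthest from 0 in both d9 against d5 panels.

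Acetate during the 24 h of restriction moved none of the 8 past the threshold by edgeR, beside 1.52% of all genes (0.66% higher and 0.865% lower). At an unadjusted p under 0.05 there were 2 of the 8, beside 19.8% of all genes, and DESeq2 called 2. Those 2 were Cd160 and Btla. Cd160 stood at 88.2 and 74.1 CPM without and at 147 and 148 CPM with acetate, so that both acetate libraries lay far above both controls (log2 0.86 ± 0.23, 95% interval 0.35 to 1.36; edgeR adjusted p = 0.0873). For Btla, at 13.4 and 14.9 against 26.6 and 24.8 CPM, the log2 change was also 0.86 (± 0.27, 95% interval 0.26 to 1.46; adjusted p = 0.133). DESeq2 gave adjusted p-values of 0.0157 for Cd160 and 0.039 for Btla, and a fit on only the 4 d5 libraries gave 0.00781 and 0.00969. Without the 2 d9 libraries that stood apart, both passed by edgeR with log2 changes of 0.86 each (adjusted p = 0.00154 and 0.0245). Over all genes these fits, in the same order, passed 726 of 11887, 1701 of 12220 and 2162 of 12935. The main fit passed 201 of 13182. CD160 and BTLA share the ligand encoded by Tnfrsf14. Beside these values, the B cell marker sum was 1.38 and 2.04 CPM without and 3.64 and 5.47 CPM with acetate at d5, with 1 of 8 markers, Cd79b, past the threshold. Its part in the Btla values was not tested, and Cd79a, Ms4a1 and Pax5, which mark B cells, were each below 1 CPM in all libraries.

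The remaining genes differed less from their spread at d5. Ctla4 was at 46.2 and 61.9 CPM without and 68.3 and 116 CPM with acetate (log2 0.77 ± 0.55; edgeR adjusted p = 0.465). Cd200r1 had a log2 change of 0.58 ± 0.29 (adjusted p = 0.296), Tigit of -0.37 ± 0.21 (0.332) and Havcr2 of -0.25 ± 0.19 (0.474). Without the 2 d9 libraries that stood apart Tigit passed at the same size of change (log2 -0.37, edgeR adjusted p = 0.0244). That fit passed 2162 of 12935 genes. For Pdcd1 the change was -0.02 ± 0.22 (edgeR adjusted p = 0.976, 95% interval -0.51 to 0.48) and for Lag3 it was -0.00 ± 0.26 (adjusted p = 1.0, 95% interval -0.58 to 0.58). Libraries of the groups did not overlap for 4 genes that were higher, Btla, Cd160, Cd200r1 and Ctla4, and for 1 that was lower, Tigit, where 29.8% and 29.2% of all genes did so.

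At d9, after 120 h, acetate again moved none of the 8 past the threshold by edgeR, beside 0.0303% of all genes, all of them higher. At an unadjusted p under 0.05 there were 3 of the 8, beside 15.4% of all genes. DESeq2 called 0 of the 8, beside 310 of 11887 genes. The median log2 change of the 8 was 0.39, against 0.01 for all genes. Ctla4, which competes with CD28 for ligand, stood at 105, 41.6 and 33.2 CPM without and 73.3, 128 and 194 CPM with acetate (log2 1.13 ± 0.45, 95% interval 0.13 to 2.14; edgeR adjusted p = 0.274). These groups overlapped through d9 replicate 1 at 105 CPM, and without that library the log2 change was 1.82 and still not past the threshold (adjusted p = 0.109). The SD of Ctla4 between replicates was 11.1 CPM at d5, 33.6 CPM at d5 with acetate, 39.5 CPM at d9 and 60.6 CPM at d9 with acetate.

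Tigit at d9 stood at 43.2 ± 6.78 CPM without and 61.0 ± 12.7 CPM with acetate (SD, n = 3 each; log2 0.50 ± 0.17, 95% interval 0.13 to 0.87; edgeR adjusted p = 0.212). Without the 2 libraries that stood apart its log2 change was 0.56 and passed (adjusted p = 0.0303), with 2 libraries left in each d9 group. That fit passed 213 of 12935 genes, against 4 of 13182 with all libraries. Pdcd1 was at 158 ± 19.3 and 212 ± 31.0 CPM (log2 0.42 ± 0.18; adjusted p = 0.303), and it was the single gene of the 8 whose d9 groups did not overlap, by 178 against 175 CPM. Among all genes 9.9% were higher and 8.79% lower with no overlap. The log2 changes of the others were 0.51 ± 0.28 for Btla, 0.35 ± 0.19 for Cd160, 0.26 ± 0.22 for Lag3, 0.12 ± 0.15 for Havcr2 and 0.00 ± 0.33 for Cd200r1, with edgeR adjusted p-values of 0.402 to 1.0. For Havcr2 the 95% interval was -0.21 to 0.46 and for Btla -0.11 to 1.13.

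The acetate effects at d9 and d5 were also compared with each other. None of the 8 differed past the threshold by edgeR, as for all genes (0.0%), and DESeq2 called 0, beside 96 of 13563 genes. At an unadjusted p under 0.05 there was 1, Tigit, beside 7.7% of all genes. The differences, as the d9 effect minus the d5 effect on the log2 scale, ran from -0.58 ± 0.43 for Cd200r1 to 0.87 ± 0.27 for Tigit. The d5 and d9 groups enter several of these comparisons, so the comparisons are not independent of each other.

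The ligands were read in the same bulk RNA. Activated T cells can express several of these ligands. Of 14 ligand genes 11 were tested, and d9 against d5 gave 3 higher and 2 lower without acetate and 3 higher and 2 lower with it (median log2 0.08 and 0.21, against -0.01 for all genes). These counts stand beside 37.1% and 41.6% of all genes, and nothing particular to the ligands is read from them. Cd200, the ligand of CD200R1, was at 34.6 and 44.7 CPM at d5, 43.3 and 43.2 CPM at d5 with acetate, 1.66 to 2.61 CPM at d9 and 1.92 to 2.86 CPM at d9 with acetate. It fell 19.1-fold without acetate (log2 -4.25 ± 0.21; edgeR adjusted p = 1.15e-06) and 18.3-fold with it (log2 -4.20 ± 0.21; adjusted p = 1.13e-06). Levels of the receptor gene Cd200r1 were also lower at d9, on the few reads given above. Hmgb1, a nuclear protein that TIM-3 can bind, fell by 1.13 ± 0.12 and 1.41 ± 0.12 on the log2 scale (edgeR adjusted p = 7.01e-05 and 2.18e-05).

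CTLA-4 shares its ligands with CD28. Cd80 rose from 17.8 ± 4.86 to 28.7 ± 4.42 CPM without acetate (edgeR adjusted p = 0.0125, lost without d5 replicate 2) and from 26.2 ± 0.833 to 40.7 ± 1.76 CPM with it (0.0159, lost without either d5 acetate library). Cd86 was scarce and rose from 0.873 ± 0.326 to 5.24 ± 0.968 CPM without acetate (edgeR adjusted p = 0.000608). With acetate it did not pass, at 3.92 and 1.74 CPM at d5 and 3.46, 4.21 and 3.41 CPM at d9. Beside these values, the marker sums reached 5.47 CPM for B cells and 2.46 CPM for myeloid and mast cells. The part of such cells in the Cd86 values was not tested. Cd28 itself fell from 142 ± 7.80 to 83.9 ± 9.44 CPM without acetate (edgeR adjusted p = 0.0031) and from 141 ± 4.68 to 99.5 ± 18.6 CPM with it (0.0239, lost without either d5 acetate library and without d9 acetate replicates 2 and 3). Tnfrsf14, the shared ligand of BTLA and CD160, rose slightly, by 0.48 ± 0.15 without acetate (edgeR adjusted p = 0.032) and 0.59 ± 0.15 with it (0.0113) on the log2 scale. The first of these calls was lost without either d5 library and without d9 replicates 2 and 3, and the second without either d5 acetate library. Lgals3, which LAG-3 can bind, rose with acetate on both days from 772 ± 45.3 to 1530.0 ± 149 CPM (edgeR adjusted p = 0.00213). Acetate moved 0 of the 11 ligands past the threshold at either day by edgeR. Beside 19.8% of all genes at d5 and 15.4% at d9, 3 ligands had an unadjusted p under 0.05 on each day. DESeq2 called 1 ligand on each day, beside 726 of 11887 genes at d5 and 310 of 11887 at d9. The smallest p at d9 was that of Pvr, bound by TIGIT, at 79.3 ± 10.1 and 117 ± 16.5 CPM (edgeR adjusted p = 0.118), and at d5 that of Cd86 (adjusted p = 0.0796).

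**Figure D3:**
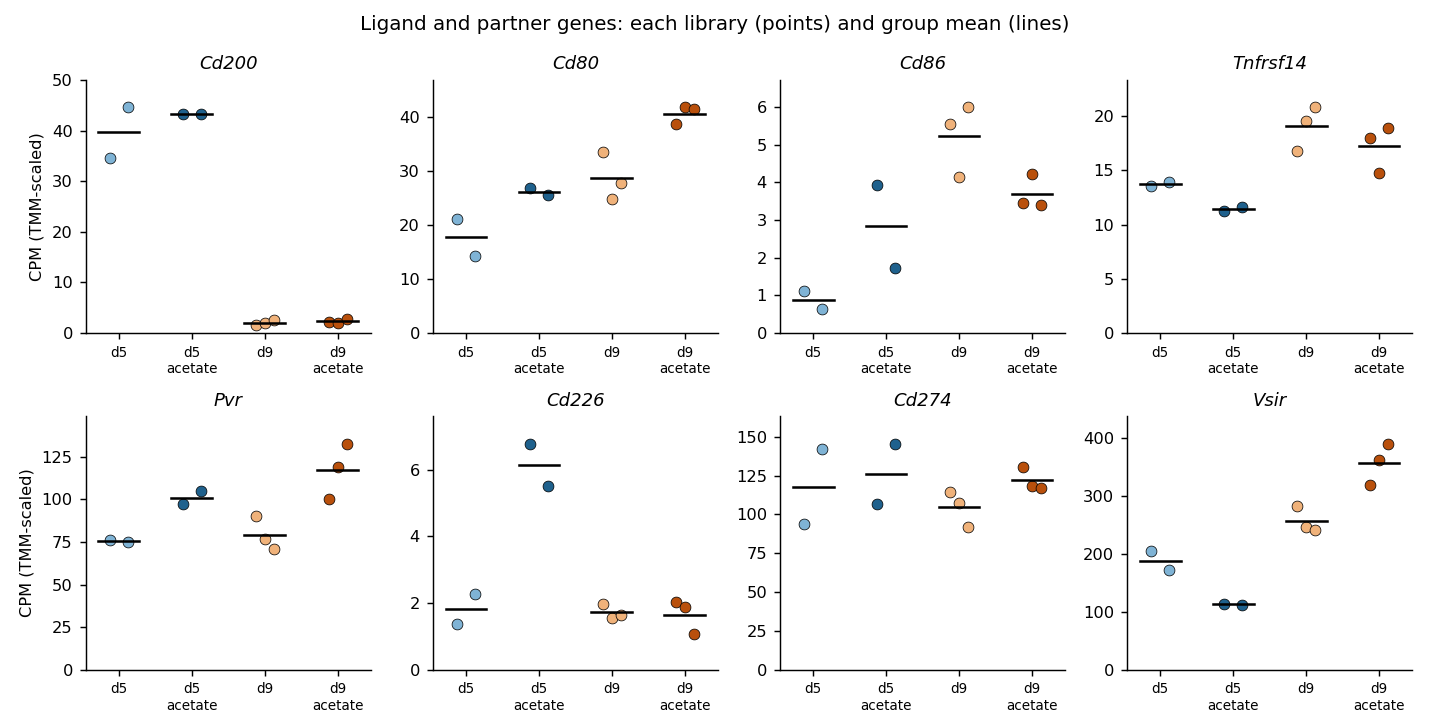
Levels in CPM (vertical axes, from 0) of 5 ligand genes of the receptors, of Cd274 (PD-L1), of the activating receptor gene Cd226 and of Vsir in every library (points), with lines at the group means. Cd200 is at 34.6 CPM or more at d5 and at 2.86 CPM or less at d9, and Cd226 is highest in the d5 acetate libraries.

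Of 8 genes that share a ligand with these receptors or act opposite to them, 2 rose with acetate at d5, beside 0.66% of all genes. At d9 0 of 8 passed by edgeR and 2 had an unadjusted p under 0.05, beside 15.4% of all genes. DESeq2 called 1 of the 8 at d9, beside 310 of 11887 genes. Of the 8, the gene of smallest p was Tnfsf14, a ligand of the herpesvirus entry mediator (163 ± 14.3 and 280 ± 60.8 CPM; edgeR adjusted p = 0.0991). Cd226, the activating competitor of TIGIT, rose from 1.83 ± 0.636 to 6.15 ± 0.891 CPM at d5 (n = 2 each; log2 1.75 ± 0.33; edgeR adjusted p = 0.0354). Cd244a, a SLAM family receptor, rose from 31.7 ± 9.43 to 81.9 ± 8.17 CPM (log2 1.37 ± 0.24; adjusted p = 0.03). Both calls were lost without any single d5 library, where few genes of any kind passed, and that of Cd226 also without d9 replicates 2 and 3. From d5 to d9, Icos, a costimulatory receptor gene of the CD28 family, fell by 1.07 ± 0.10 without and 1.06 ± 0.10 with acetate on the log2 scale (edgeR adjusted p = 4.14e-05 and 4.71e-05). Cd244a rose without acetate (31.7 to 75.1 CPM; edgeR adjusted p = 0.00183), and Cd226 fell with acetate from 6.15 to 1.66 CPM (adjusted p = 0.000553).

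Among 21 other inhibitory receptor genes 20 were found by symbol and 15 were tested. From d5 to d9 without acetate 8 rose and 3 fell (median log2 1.06), and with acetate 7 rose and 3 fell (median 0.59), against a median of -0.01 for all genes. Of all genes 15.9% rose and 21.2% fell without acetate, and 18.5% rose and 23.1% fell with it. Cd72 rose from 2.16 ± 0.168 to 13.6 ± 1.70 CPM without acetate (edgeR adjusted p = 7.73e-05), and with it stood at 6.45 ± 1.44 and 18.8 ± 5.46 CPM. Klrg1, a marker of terminal effector cells, rose without acetate from 1.11 ± 0.246 to 3.89 ± 1.88 CPM (edgeR adjusted p = 0.014, lost without either d5 library). With acetate Klrg1 rose from 1.06 ± 0.0860 to 4.62 ± 1.82 CPM (0.00554). Pvrig, whose product binds the ligand nectin-2, went from 0.0844 to 1.41 CPM without and from 0.0543 to 2.13 CPM with acetate, and Cd300a from 0.109 to 0.765 CPM with acetate. At d5 these rest on 1 to 2 reads of Pvrig and 2 to 3 of Cd300a per library, against 26 to 54 and 5 to 22 at d9. Both therefore met the filter on low counts through the d9 libraries alone, and their calls, though part of the counts above, carry no weight of their own. Klrc1, which encodes the NK-type receptor chain NKG2A and has close paralogs that can share its reads, fell 7.77-fold without acetate and 4.04-fold with it (edgeR adjusted p = 1.88e-05 and 0.000157). Cd101 fell by 1.00 ± 0.18 and 1.18 ± 0.18 on the log2 scale, and Cd5, a brake on antigen receptor signalling, by 0.92 ± 0.15 and 0.48 ± 0.15, the last of these lost without d5 acetate replicates 1 and 2 and without d9 acetate replicates 1 and 2. Where the counting did not use strand, reads of Tesk1, whose exons overlap those of Cd72 in the other direction, could enter the Cd72 count. The same holds for Hmgb1, Cd247, Lrba, Rasa1, Ptpn6, Tox, Eomes, Bach2 and Jun, which have overlapping partners of their own.

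With acetate at d5, 2 of the 15 rose and 1 fell, and at d9 0 of 15 passed by edgeR, with 8 at an unadjusted p under 0.05 and 2 called by DESeq2. Of all genes 0.66% rose and 0.865% fell at d5, and 15.4% had an unadjusted p under 0.05 at d9. DESeq2 passed 310 of 11887 genes at d9. Vsir, the gene of the checkpoint protein VISTA, fell at d5 from 205 and 171 CPM to 113 and 112 CPM (log2 -0.74 ± 0.14; edgeR adjusted p = 0.0373). At d9 it stood at 284, 246 and 242 CPM without and 319, 363 and 390.5 CPM with acetate (log2 0.47 ± 0.12; adjusted p = 0.129). The groups did not overlap on either day and lay in opposite order, and the difference of the acetate effects was 1.21 ± 0.18 (edgeR adjusted p = 0.0706; 3.39e-05 by DESeq2). Cd72 rose at d5 from 2.16 ± 0.168 to 6.45 ± 1.44 CPM (edgeR adjusted p = 0.0385), and Cd244a is given above. The B cell marker sum was also highest in the d5 acetate group, at 3.64 and 5.47 CPM, and reached 2.00 CPM at d9. Its part in the Cd72 values was not tested. The d5 calls of Vsir and Cd72 were lost without any single d5 library and without d9 replicates 2 and 3, and that of Cd72 also without d9 acetate replicate 1. Few genes of any kind passed for acetate at d5 in the fits without a d5 library.

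Of 15 signalling and trafficking genes 14 were tested, with 4 higher and 2 lower from d5 to d9 without acetate and 6 higher and 1 lower with it, beside 37.1% and 41.6% of all genes. Dok1, an adaptor of CD200R1, rose from 52.9 ± 3.36 to 79.0 ± 2.79 CPM without acetate (edgeR adjusted p = 0.00621, lost without d5 replicate 2). Rasa1, a GTPase-activating protein recruited by Dok proteins, fell by 0.84 ± 0.21 and 0.69 ± 0.21 on the log2 scale (0.00936 and 0.0212), and the first call was lost without either d5 library. The second was lost without d5 acetate replicate 1 and without d9 acetate replicate 3. Inpp5d, which encodes the inositol phosphatase SHIP1, rose with acetate from 79.1 ± 3.60 to 133 ± 27.1 CPM (edgeR adjusted p = 0.00489). Grb2, an adaptor, rose by 0.39 ± 0.10 without acetate (edgeR adjusted p = 0.00979, lost without d5 replicate 1) and 0.75 ± 0.10 with it (0.000254) on the log2 scale. Cd247, the antigen receptor's zeta chain, just passed without acetate (233 ± 19.5 to 325 ± 39.8 CPM; edgeR adjusted p = 0.0486) and was called in 7 of 16 alternative fits. Cblb, a ubiquitin ligase that restrains activation, rose with acetate from 145.5 ± 24.2 to 274 ± 89.5 CPM (0.0304, lost without either d5 acetate library and without d9 acetate replicates 1 and 3). Lrba, needed for recycling of CTLA-4, fell without acetate from 37.6 ± 1.21 to 20.2 ± 5.66 CPM (0.0367), a call lost without either d5 library and without d9 replicates 1 and 3. Acetate moved 0 of 14 past the threshold at either day by edgeR. At an unadjusted p under 0.05 there were 5 at d5 and 0 at d9, beside 19.8% and 15.4% of all genes. DESeq2 called 1 and 0, beside 726 and 310 of 11887 genes. The gene of smallest p was Ptpn6 at d5 (edgeR adjusted p = 0.121) and Dok2 at d9 (0.408).

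Of 19 transcription factors known to act on these or related genes 17 were tested, with 4 higher and 3 lower from d5 to d9 without acetate and 7 higher and 2 lower with it. The shares of all genes that passed were 37.1% and 41.6%, and nothing particular to the list is read from these counts. Tox, a driver of PD-1 expression in exhausted cells, fell from 15.3 ± 1.58 to 2.71 ± 0.575 CPM without acetate and from 11.3 ± 1.93 to 1.61 ± 0.529 CPM with it (edgeR adjusted p = 4.78e-05 and 3.43e-05). Tbx21, which encodes T-bet, fell from 95.3 ± 16.3 to 36.5 ± 10.0 CPM and from 132 ± 41.9 to 64.7 ± 8.61 CPM (0.00151 and 0.00662, the second lost without d5 acetate replicate 1). Eomes, its relative, rose from 5.61 ± 0.576 to 28.9 ± 3.95 CPM and from 3.88 ± 0.136 to 34.1 ± 5.32 CPM (edgeR adjusted p = 1.33e-05 and 4e-06). Prdm1, the gene of BLIMP1, rose by 2.49 ± 0.34 and 2.33 ± 0.33 on the log2 scale. Batf rose without acetate from 37.9 ± 2.21 to 111 ± 5.28 CPM, and with it stood at 48.3 ± 2.165 and 97.1 ± 11.2 CPM. Bach2, a repressor of effector genes, fell without acetate from 168 ± 41.4 to 55.3 ± 15.8 CPM (edgeR adjusted p = 0.00239). With acetate Bach2 did not pass, at 72.3 ± 6.13 CPM at d5 and 63.4 ± 21.4 CPM at d9. Nr4a1 rose with acetate on both days, from 48.1 ± 7.62 to 407 ± 326 CPM (0.00358), with 781 CPM in d9 acetate replicate 3. Acetate moved 1 of the 17 at d5, Jun, a component of AP-1, which fell from 36.2 ± 6.08 to 14.3 ± 2.25 CPM (edgeR adjusted p = 0.0113, lost without 3 of the 4 d5 libraries, d5 replicate 2 and both with acetate), and 0 at d9 by edgeR. Of all genes 0.865% fell past the threshold with acetate at d5. At d9 8 of the 17 had an unadjusted p under 0.05, beside 15.4% of all genes. DESeq2 called 1 of the 17 at d9, beside 310 of 11887 genes. The smallest p of the 17 at d9 was that of Tbx21 (36.5 ± 10.0 and 64.7 ± 8.61 CPM; edgeR adjusted p = 0.158).

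The difference of the acetate effects at d9 and d5 passed for no gene of these lists by edgeR. At an unadjusted p under 0.05 there were 2 ligands, 3 signalling genes, 3 counterparts, 4 other inhibitory receptors and 7 regulators, beside 7.7% of all genes. DESeq2 called 1 in each list except that of signalling, with 0, beside 96 of 13563 genes. The genes of smallest p were Cd86 (log2 -2.18 ± 0.51; edgeR adjusted p = 0.224), Cblb (1.20 ± 0.41; 0.508), Cd226 (-1.81 ± 0.43; 0.236), Vsir, given above, and Jun (1.72 ± 0.23; 0.0648).

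Of the 8 receptor genes 3 lie close together on chromosome 16, where, counted between their lowest coordinates, Tigit lies at -1575 kb and Cd200r1 at -458.6 kb from Btla. Cd200 lies at 157.8 kb. This window was chosen after the values were seen. Within 2 Mb on either side of the lowest coordinate of Btla, 22 other genes were tested, of which 8 fell and 1 rose from d5 to d9 without acetate and 10 fell and 0 rose with it. That is 36.4% and 45.5% lower, against 21.2% and 23.1% lower among all genes, and these counts include genes next to each other, which are not independent. Changes were unequal along the window: Cd96, at 811.3 kb, had log2 changes of 0.06 and -0.26 and did not pass, and Cd200r4, a relative of Cd200r1, rose without acetate (log2 1.62; edgeR adjusted p = 0.0253).

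**Figure D4:**
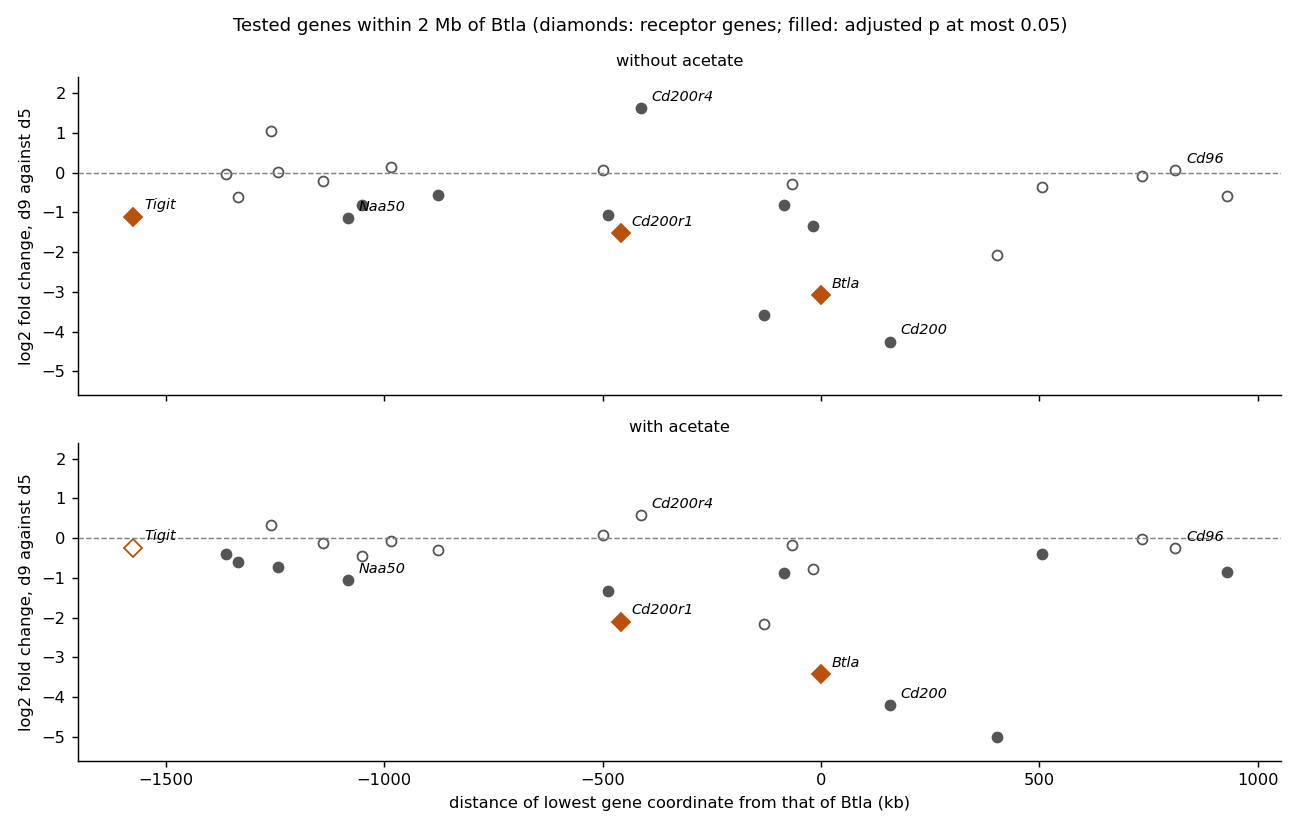
Log2 fold change of d9 against d5 (vertical axis) for the 25 tested genes whose lowest coordinate lies within 2 Mb of that of Btla, by distance in kb, without acetate above and with acetate below. Diamonds are receptor genes and filled symbols passed an adjusted p of 0.05; Btla and Cd200 are low in both panels, while Tigit is filled without acetate and open with it.

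For each receptor gene the 2 protein-coding genes with the most similar profile were listed by Pearson correlation of log2 CPM over the 10 libraries, among 9781 genes. The libraries fall into d5 and d9 clusters, so these values describe the profile and carry no test. Btla was most like Trmt11 and Anp32e (r = 0.99 each), Cd200r1 like Cep57 (0.993) and Hsp90aa1 (0.99), and Pdcd1 like Gon7 (0.969) and Wdhd1 (0.968). Tigit was closest to Gnptab (0.977) and Spry1 (0.958), Cd160 to Psmd14 (0.979) and Nifk (0.974), and Lag3 to Gmeb1 (0.96) and Prpf3 (0.959). Ctla4 followed Bnip3l (0.952) and Arrdc3 (0.939), and Havcr2 was least well matched, by Fam214a (0.908) and Mdm2 (0.905). No gene was listed for more than 1 of the receptors.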

How the data were processed

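Stranded mRNA libraries of 10 samples were sequenced, as the labels record. Each deposited file holds raw gene counts from the authors, and deepTools, STAR, featureCounts and DESeq2 with GRCm38 are named, without roles or settings, in the submitters' processing notes. Strand setting and annotation release: not given in the sources used here. Whether reads of genes overlapping on opposite strands were told apart is therefore not known. Of 53465 identifiers 53274 matched GENCODE M21, and the 191 others made up no more than 0.02% of any library.

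Counts were scaled by TMM, filtered with filterByExpr by group (13182 genes kept) and fitted with edgeR 4.0.16 in R 4.3.3 (quasi-likelihood, robust, 4 group means, 6 residual degrees of freedom). Adjusted p-values are Benjamini-Hochberg over all 13182 genes, and SE was derived from the log2 fold change and the F statistic. Levels per kb divide CPM by the summed length of all annotated exons. Named genes were the 8 receptors and, per list and comparison, up to 3 per direction past the threshold by absolute log2 fold change, or else the gene of smallest p. The members and lists were chosen with earlier results of these data known. Alternatives were DESeq2 size factors, no filter, DESeq2 1.42.0, a replicate block, only the libraries compared, leaving out each library, and leaving out 2 d9 libraries. No library was a copy of another: chi-square over degrees of freedom between replicates was 6.01 to 76.6. The scripts were tested on simulated data.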

Additional observations from a re-analysis of the deposited data

How the results depend on the processing

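For d9 against d5 the 16 alternatives called 4 or 5 of the 8 receptors without acetate and 3 to 5 with it, against 4 in each. For acetate at d5, against 0 receptors, no filter on low counts gave 2, DESeq2 gave 2, the d5 libraries alone gave 2 and leaving out d9 replicate 1 and d9 acetate replicate 2 together gave 3. Over all genes these fits passed 578 of 23195, 726 of 11887, 1701 of 12220 and 2162 of 12935, against 201 of 13182. Leaving out 1 library at a time gave 0 to 1 at d5 with acetate. For acetate at d9 and for the difference of the acetate effects, leaving out those 2 d9 libraries gave 1 each, Tigit, and each other alternative gave 0. Over all genes, leaving out those 2 libraries passed 213 and 255 of 12935, against 4 and 0 of 13182. DESeq2 passed 310 of 11887 and 96 of 13563. The cause of these differences was not tested. No called receptor changed sign. Of receptors past no threshold, Cd200r1 for acetate at d9 was -0.0062 without a filter, -0.0025 with the replicate block and -0.076 without the 2 libraries, and without single libraries ran from -0.12 to 0.13. Pdcd1 for acetate at d5 was 0.0023 and Lag3 0.018 with DESeq2 size factors, and Lag3 was 0.015 by DESeq2 and 0.0022 with the block; without single libraries they ran from -0.33 to 0.24 and from -0.19 to 0.16. For d9 against d5 without acetate Ctla4 was -0.55 and Cd160 -0.11 without the 2 libraries, and without single libraries Ctla4 ran from -0.51 to 0.44, Cd160 from -0.067 to 0.26 and Havcr2 from -0.022 to 0.23. Without single libraries Havcr2 for acetate at d9 ran from -0.022 to 0.235, and Ctla4 for the difference of the acetate effects from -0.022 to 1.055.

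Same-numbered samples of different groups did not deviate together, with correlations of -0.392 to 0.329 over 13 pairs, 5 of them above 0.1. With the replicate number as a block 5 receptors passed without acetate for d9 against d5, Lag3 being added (log2 -0.74, edgeR adjusted p = 0.0374), 4 with acetate and 0 in the other comparisons. A fit without 1 d5 library leaves its group with 1 sample, assumed to vary like the other groups. For acetate at d5 such fits passed few genes of any kind. Depth limits Cd200r1 most, at 8 to 37 reads.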
